A study of Mus musculus with 15 samples.

Results

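Macrophages carrying the BRAF V600E mutation were compared between 2 organs of 1-month-old mice: the brain, where the cells are labelled microglia, and the liver, where they are labelled liver macrophages. The comparison took the 3 mutant brain libraries (numbered 3, 4 and 5) and the 3 mutant liver libraries (numbered 3, 4 and 5), which are 6 of the 15 samples of the series. They were chosen by organ, genotype and age label and not by any measured value. The mice combine an inducible Cre recombinase driven by the Csf1r promoter, a BRAF V600E allele that Cre switches on, and a YFP reporter that Cre switches on. The protocol field, shared by all samples, describes a sort of cells positive for YFP and for F4/80, a surface antigen of mouse macrophages. The mutant source labels carry YFP+, and these groups are called brain VE and liver VE. For reference, the 2 brain and 3 liver libraries labelled BRAFWT at the same age are called brain WT and liver WT. Their source labels leave YFP out, so the gate may differ between genotypes. Per the series' design text, the brain tissue was brain stem. Cre acts only in cells that have used the Csf1r promoter, so a VE library describes the recombined cells that reached the gate and not all macrophages of an organ. No label says that libraries came from separate animals, and the p-values below measure the spread between these libraries, which may be partly technical.

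Microglia are the resident macrophages of the brain parenchyma and Kupffer cells are the resident macrophages of the liver sinusoids. Both are seeded before birth and depend on the receptor CSF1R, and each takes on its tissue programme from local signals: TGF-beta is known to maintain the microglial state, while Notch ligands, BMP ligands and sterol-sensing nuclear receptors of the LXR family are known to install the Kupffer state. BRAF V600E is a constitutively active kinase that signals through MEK and ERK. Microglia are known for process motility guided by purine receptors and for synapse surveillance. Kupffer cells are known for clearing particles, old red cells and lipoproteins from blood.

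Values are length-scaled transcript abundances (TPM), each a share of its library, so levels may be compared between genes, while read depth is unknown. Differences are on the log2(TPM + 1) scale, positive when higher in brain, which understates the change of low genes. A call means an adjusted p under 0.05 by limma's moderated test with Benjamini-Hochberg adjustment over the 15123 genes tested. In bulk RNA, fewer cells of a type and less RNA per cell cannot be told apart. Between 10335 and 11054 genes reached 1 TPM in a brain VE library and between 11527 and 12061 in a liver VE library. Mitochondrial transcripts took 7.34% to 9.80% of TPM in brain VE and 14.7% to 21.5% in liver VE. The median SD of a gene on the log2 scale was 0.73 in brain VE and 0.38 in liver VE, so the brain libraries set most of the error.

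The macrophage labels were checked first. Csf1r, the receptor whose promoter drives Cre, stood at 810.5, 756 and 857 TPM in brain VE and 341, 359 and 348 TPM in liver VE (log2 fold change 1.20 ± 0.13 (SE), adjusted p = 0.0025). It was high in all 6 libraries and the groups did not overlap. Adgre1, which encodes the F4/80 antigen of the gate, stood at 163, 92.7 and 64.8 TPM in brain VE and 376, 377 and 296 TPM in liver VE and was lower in brain (log2 fold change -1.80 ± 0.36 (SE), adjusted p = 0.018). That call was lost without any 1 of the 3 liver VE libraries, with log2 fold changes of -1.91 to -1.74. Spi1, which encodes the macrophage factor PU.1, stood at 269.7, 177 and 281 TPM in brain VE and 93.4, 163 and 112 TPM in liver VE and did not pass (0.99, adjusted p = 0.07). Braf itself stood at 39.2, 3.88 and 22.9 TPM in brain VE and 5.8, 5.8 and 8.32 TPM in liver VE with no call (1.15, adjusted p = 0.38). Gene-level TPM do not separate its mutant from its normal allele. Of 20 genes that macrophages share, 10 were higher in brain VE, 3 were lower and 7 did not pass. Among them the signalling adaptor Tyrobp did not pass (0.30, adjusted p = 0.18), while the lysosomal enzyme Lyz2 fell from 10203, 21462 and 14016 TPM in liver to 93.5, 189.5 and 677 TPM in brain (log2 fold change -5.98 ± 0.70 (SE), adjusted p = 0.0032). The 10 higher calls became 6 under median-ratio scaling, and 6 with either repeat column used alone.

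Over all genes, 2734 of 15123 (18.1%) differed between brain VE and liver VE. Of these, 1372 (9.07%) were higher in brain and 1362 (9.01%) were higher in liver. The median difference of all genes was 0.13 on the log2 scale and -0.09 after median-ratio scaling, under which 1027 genes were higher and 1642 lower in brain. Past a log2 fold change of 4 in size there were 185 genes on the brain side and 278 on the liver side. The libraries of the 2 groups did not overlap for 3209 genes (21.2%) with brain higher and 2955 (19.5%) with liver higher. The total was 1727, 1690 and 1757 genes without liver VE 3, 4 and 5, and 2539, 2969 and 2607 without brain VE 3, 4 and 5. The part of the wider brain spread in these counts was not tested. All VE counts of list members below are to be read against 9.07% and 9.01%. Counts in WT cells are to be read against 11.6% of genes higher and 8.85% lower in brain. Some genes belong to several lists, so the counts of different lists are not independent. Slc40a1, Cd163 and Spic, for example, are in the Kupffer and iron lists, Nr1h3 in the Kupffer and lipid lists, and Tgfbr1 in the microglia and TGF-beta lists.

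The homeostatic microglia list was carried by the mutant brain cells, and most of its members stood at a small share of that level in the mutant liver cells. Of its 26 genes, 25 were higher in brain VE and none was lower, with a median log2 fold change of 5.82 against 0.13 over all genes. The receptors that define surveying microglia led the list. P2ry12, the ADP receptor that steers microglial processes, stood at 19899, 20100.0 and 16918 TPM in brain VE and 83.0, 151 and 68.9 TPM in liver VE (log2 fold change 7.62 ± 0.29 (SE), adjusted p = 6.3e-05). Tmem119, a membrane protein used to tell microglia from other brain macrophages, stood at 835, 893 and 786 TPM in brain VE and 1.03, 2.31 and 1.17 TPM in liver VE (8.42). Gpr34, a lysophosphatidylserine receptor, stood at 8046, 9184 and 7229.5 TPM in brain VE and 13.8, 28.8 and 19.3 TPM in liver VE (log2 fold change 8.61 ± 0.28 (SE), adjusted p = 3.4e-05). For each of these the lowest brain library was far above the highest liver library. Siglech, a sialic acid-binding lectin, differed by 8.46 and Fcrls, an Fc receptor-like scavenger protein, by 7.67 (adjusted p = 2.8e-05 and 7.8e-05). Sall1, the transcription factor that guards microglial identity, stood at 57.6, 83.5 and 90.3 TPM in brain VE and 0.179, 0.343 and 0.258 TPM in liver VE (log2 fold change 5.93 ± 0.43 (SE), adjusted p = 0.00052). It was the lowest of these genes per length in brain, and its liver level was under 1 TPM in all 3 libraries. Among the abundant members, Cst3, the secreted protease inhibitor cystatin C, stood at 109700.0, 129080.0 and 99694 TPM in brain VE and 2892, 3299 and 3537 TPM in liver VE (log2 fold change 5.12 ± 0.12 (SE), adjusted p = 1.5e-05). The member that did not pass was Lag3 (1.12, adjusted p = 0.059), an inhibitory receptor listed at 1.74, 0.752 and 2.36 TPM in brain VE. Others with the largest brain-side differences were Rnase4, a secreted ribonuclease, the galactose sulfotransferase Gal3st4, the vesicle protein Syngr1 and the matrix protein Olfml3, at log2 fold changes of 7.50, 7.46, 7.42 and 7.24.

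The Kupffer list gave the mirror image. Of its 23 genes, 21 were higher in liver VE and none was higher in brain VE, with a median log2 fold change of -5.81. Clec4f, the lectin by which mouse Kupffer cells are most often identified, stood at 0, 0 and 0.141 TPM in brain VE and 1963, 2382 and 1734 TPM in liver VE (log2 fold change -10.91 ± 0.28 (SE), adjusted p = 1.6e-05). Vsig4, a complement receptor that captures bacteria from blood, stood at 0, 0 and 0.168 TPM in brain VE and 3658, 4942 and 3882 TPM in liver VE (log2 fold change -11.94 ± 0.25 (SE), adjusted p = 1.5e-05). Cd5l, a secreted scavenger protein, stood at 0, 0 and 0.0832 TPM in brain VE and 2154, 2535 and 2162 TPM in liver VE (-11.12). These 3 genes were listed at 0 in brain VE 3 and brain VE 4 and were under 1 TPM in brain VE 5. Timd4, a phosphatidylserine receptor of long-resident macrophages, differed by -8.64, the folate receptor Folr2 by -10.78, and the C-type lectin Clec1b by -9.65. Fcna, which encodes the pattern-binding protein ficolin A, differed by -10.68. The 2 members without a call were the potassium channel gene Kcna2 (-0.92, adjusted p = 0.17) and Ptgs1, the constitutive cyclooxygenase, which stood at 212, 269 and 461 TPM in brain VE and 185, 204 and 171 TPM in liver VE (0.68, adjusted p = 0.18). The largest fold change among all named genes belonged to Wfdc17, a small secreted protein of the whey acidic protein family. It stood at 1.01, 0.521 and 47.9 TPM in brain VE and 25781, 25190.0 and 28576 TPM in liver VE (log2 fold change -12.28 ± 1.27 (SE), adjusted p = 0.002), and its single raised brain value was in brain VE 5.

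**Figure D1:**
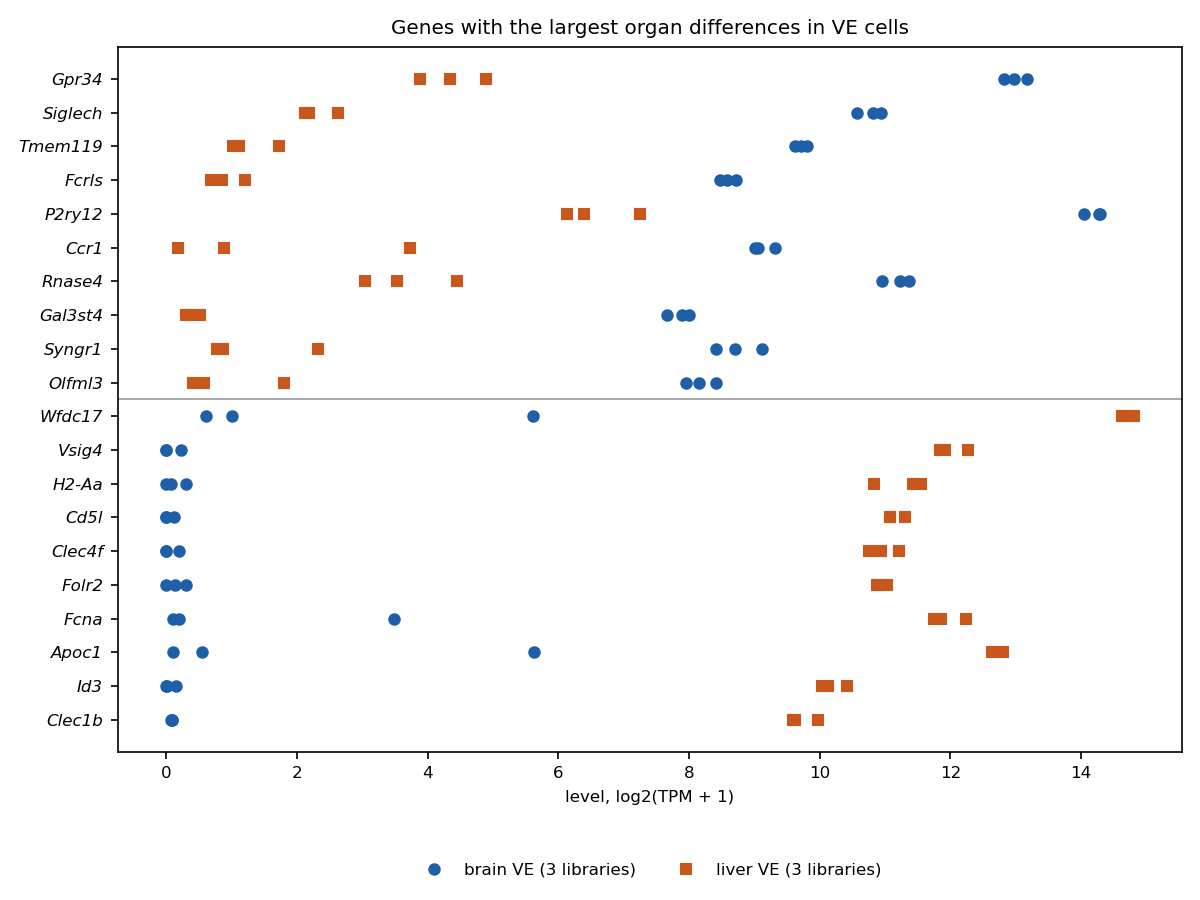
Level of each of the 10 genes furthest up in brain VE and the 10 furthest up in liver VE (rows), as log2(TPM + 1) on the horizontal axis, with circles for the 3 brain VE libraries and squares for the 3 liver VE libraries. Circles and squares of a gene do not overlap because the 20 genes were picked with non-overlapping libraries as a condition. P2ry12 and Gpr34 are the most abundant brain genes shown, and Wfdc17 reaches 25781, 25190.0 and 28576 TPM in liver VE.

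Fcrls and Cd5l, identity genes of the opposite organs, lie near each other on chromosome 3, which is why their upstream sequences are shown. Fcrls stood at 355, 380.3 and 420.0 TPM in brain VE and 0.609, 1.31 and 0.815 TPM in liver VE, and Cd5l had the reverse pattern given above. The 250 bases upstream of each RefSeq start site (RefSeq, GRCm38.p6) are chr3:87263525-87263774 on the minus strand for Fcrls and chr3:87357631-87357880 on the plus strand for Cd5l. Capitals mark matches on either strand to GAGGAA, a core that the factor PU.1 can bind, and to TGCTGA, a core of the sites bound by MAF proteins.
Fcrls: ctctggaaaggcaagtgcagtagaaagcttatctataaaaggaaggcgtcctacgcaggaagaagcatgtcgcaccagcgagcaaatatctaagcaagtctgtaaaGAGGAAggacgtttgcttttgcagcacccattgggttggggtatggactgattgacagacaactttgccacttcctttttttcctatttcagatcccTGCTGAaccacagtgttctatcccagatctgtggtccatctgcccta
Cd5l: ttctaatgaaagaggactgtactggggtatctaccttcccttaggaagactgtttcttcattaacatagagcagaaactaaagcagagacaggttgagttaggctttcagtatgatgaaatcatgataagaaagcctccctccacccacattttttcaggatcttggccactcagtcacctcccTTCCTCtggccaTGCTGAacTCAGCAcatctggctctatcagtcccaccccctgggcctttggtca
In Fcrls the last base of the GAGGAA match lies 139 bases, and that of the TGCTGA match 42 bases, before the start. Cd5l has 3 matches, of which the first ends 61 bases before the start and the second 49. GAGGAA was found in 5 of 18 microglia list promoters (27.8%) and 5 of 20 Kupffer list promoters (25%), beside 25.9% of all 27025 genes with a promoter entry. TGCTGA was found in 5 of 18 (27.8%) and 7 of 20 (35%), beside 18% of all. Among the 9994 tested genes with an entry the shares were 26.1% for GAGGAA and 15.7% for TGCTGA. A match is a string in this window and is not evidence that a factor binds there.

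Most members of each list stood at a small share of their home level in the other organ's cells. Over the 26 microglia genes, the liver VE level was a median of 0.893% of the brain VE level, with a range of 0.180% to 43.1%, and in WT cells the median was 0.596%. Over the 23 Kupffer genes, the brain VE level was a median of 0.0139% of the liver VE level, with a range of 0% to 169%, and in WT cells the median was 0.0896%. The microglia list summed to 160950.0, 179710.0 and 144090.0 TPM in the brain VE libraries and 4103, 5173 and 5029 TPM in the liver VE libraries. The Kupffer list summed to 360.1, 420.3 and 537 TPM in brain VE and 16557, 19347 and 15684 TPM in liver VE. Ptgs1, which had no call, made up 212, 269 and 461 TPM of the Kupffer sums in brain VE. The low values were uneven between libraries. Liver VE 4 had the highest of the 3 liver VE values for 18 of 26 microglia genes. Brain VE 5 had the highest of the 3 brain VE values for 13 of 21 Kupffer genes.

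Transcription factors split along the same line. Of 14 microglial factors, 7 were higher in brain VE and 1 was lower. Of 15 Kupffer factors, 9 were lower in brain VE and 2 were higher. Mef2c, a factor of the microglial enhancer programme, stood at 74.2, 65.4 and 165 TPM in brain VE and 0.249, 0.937 and 0.604 TPM in liver VE (log2 fold change 5.90 ± 0.52 (SE), adjusted p = 0.0011), and its relative Mef2a differed by 2.12. Smad3, the effector of TGF-beta receptors, differed by 2.82 (adjusted p = 0.017). That call was lost without any 1 of the liver VE libraries (2.59 to 2.9954). On the liver side, Id3, an inhibitor of helix-loop-helix factors that is needed for Kupffer cells, stood at 0, 0.0129 and 0.115 TPM in brain VE and 1364, 1044 and 1117 TPM in liver VE (log2 fold change -10.13 ± 0.29 (SE), adjusted p = 2.5e-05). Nr1h3, the sterol-sensing receptor LXR-alpha, stood at 0, 0.00945 and 0.0113 TPM in brain VE and 175, 218 and 157 TPM in liver VE (log2 fold change -7.50 ± 0.38 (SE), adjusted p = 0.00014). Both were under 1 TPM in every brain VE library and over 100 TPM in every liver VE library. Spic, a factor of iron-recycling macrophages, stood at 3.58, 2.53 and 4.52 TPM in brain VE and 182, 176 and 139 TPM in liver VE (-5.21). Etv1, an ETS factor and a known target of ERK signalling, stood at 50.4, 29.0 and 54.9 TPM in brain VE and 4.97, 2.4 and 5.23 TPM in liver VE (log2 fold change 3.14 ± 0.47 (SE), adjusted p = 0.007). Irf8, an interferon regulatory factor, had no call (1.14, adjusted p = 0.11).

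Some genes of the instructive signals also differed. Tgfbr1, the kinase subunit of the TGF-beta receptor, stood at 619, 531 and 817 TPM in brain VE and 13.5, 22.6 and 22.1 TPM in liver VE (log2 fold change 5.02 ± 0.30 (SE), adjusted p = 0.00026), with no overlap between the organs. Of 15 tested genes in the TGF-beta list of 19, 5 were higher in brain VE and none was lower: Tgfbr1, Smad3, the Smad repressor Ski (2.30), the integrin subunit Itgav that frees latent TGF-beta (1.02) and the partner receptor Tgfbr2 (1.17). The list's calls fell to 1, 2 and 1 without liver VE 3, 4 and 5, and to 3 under median-ratio scaling or quantile normalization. Ltbp1 and Nrros, which anchor the latent cytokine, did not pass (1.01, adjusted p = 0.14 and 0.44, adjusted p = 0.41). Of 15 tested genes in the BMP and Notch list of 19, none was higher, 4 were lower in brain VE and 11 did not pass. No BMP receptor gene was among the 4, and the receptor gene Acvrl1 did not pass (-1.26, adjusted p = 0.26). Id1, a direct BMP target, stood at 0.0185, 0 and 0 TPM in brain VE and 327, 168 and 138 TPM in liver VE (log2 fold change -7.62 ± 0.46 (SE), adjusted p = 0.00027), and Id2 at 158, 113 and 106 TPM in brain VE and 319, 286 and 309 TPM in liver VE (-1.29). Notch1 and its target Hey1 were low in both organs (-1.14 and -1.93) and lost their calls under most settings. Without brain VE 3, brain VE 4 or liver VE 5, and with the last repeat column alone or no filter, the list had 2 calls.

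Lipid handling was mostly a liver programme. Of 21 tested genes in the LXR and lipid list of 22, 12 were lower in brain VE and 2 were higher, with a median of -2.998. Apoe, the lipoprotein ligand, stood at 583, 934 and 662 TPM in brain VE and 11443, 18017 and 16438 TPM in liver VE (log2 fold change -4.40 ± 0.24 (SE), adjusted p = 0.00017), the most abundant lipid gene in both organs. Apoc1, its neighbour in the apolipoprotein cluster, stood at 0.0743, 48.5 and 0.457 TPM in brain VE and 7157, 6350.0 and 6879.6 TPM in liver VE (log2 fold change -10.64 ± 1.40 (SE), adjusted p = 0.0047) and was highest among the brain libraries in brain VE 4. Pltp, the phospholipid transfer protein and an LXR target, stood at 0, 0.00812 and 0.133 TPM in brain VE and 200.3, 296 and 249 TPM in liver VE (-7.88). Lpl, lipoprotein lipase, differed by -2.50 and kept its call in 10 of 18 other settings. The 2 higher in brain were Lpcat3, a phospholipid-remodelling enzyme (2.60), and Mylip, the ligase that degrades the LDL receptor (1.76), both of which are LXR targets. Neither was called without liver VE 3 or with the first repeat column alone. The sterol exporters Abca1 and Abcg1 did not pass (-0.18, adjusted p = 0.75 and -1.07, adjusted p = 0.14). In the cholesterol synthesis list, 1 of 16 tested genes of 17 was called, Msmo1 (1.36), a call lost without each library but brain VE 5.

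Iron and haem genes followed the liver. Of 17 tested genes of 18, 10 were lower and 1 was higher in brain VE, with a median of -2.34. Hmox1, which breaks down haem, stood at 6.25, 1.88 and 0.128 TPM in brain VE and 441, 469 and 424 TPM in liver VE (log2 fold change -7.28 ± 0.67 (SE), adjusted p = 0.0012). Slc40a1, the iron exporter ferroportin, differed by -3.81, the haptoglobin-haemoglobin receptor Cd163 by -4.93, and Blvrb, a biliverdin reductase, by -7.15. The ferritin subunits Ftl1 and Fth1 differed by -3.48 and -1.80. The one higher gene was Bach1, a haem-sensing repressor of Hmox1 (1.77, adjusted p = 0.046), whose call was kept in 4 of 18 other settings. Haemoglobin transcripts marked liver VE 3: the erythroid list of 9 genes in the table summed to 7582, 103 and 57.4 TPM in liver VE 3, 4 and 5 and 1.64, 0.55 and 0.0518 TPM in brain VE. The iron list summed to 55078, 54939 and 53002 TPM in the same liver libraries. The part of red cell material in the iron results was not tested.

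Most clearance receptors were higher in the mutant liver cells. Of 19 tested genes in the scavenger list of 21, 13 were lower in brain VE and 2 were higher, with a median of -4.32. The list's members Marco, Cd163, Timd4, Vsig4 and Cd5l are also in the Kupffer list, and Pros1 is also in the microglia list. Msr1, the class A scavenger receptor, differed by -6.67 and Axl, a receptor for apoptotic cells, by -6.31 (adjusted p = 0.0054 and 0.00043). Stab1, a receptor for acetylated lipoproteins, was higher in brain VE at 116, 156 and 243 TPM in brain VE and 30.8, 45.1 and 39.3 TPM in liver VE (log2 fold change 2.08 ± 0.34 (SE), adjusted p = 0.0098), as was Pros1, the bridging ligand of the TAM receptors (3.20). Mertk, the TAM receptor used by both cell types, had no call (0.49, adjusted p = 0.39). In the complement list, 11 of 22 tested genes of 23 were lower in brain VE and 3 were higher. Cfp, the stabiliser properdin, led the liver side (-9.25). The higher ones included Itgam, the receptor subunit CD11b (4.06), and the regulator Cr1l (1.21), a call lost without each library but brain VE 3. The initiating C1q chains were high in both organs. C1qa stood at 1671, 1519.6 and 1469 TPM in brain VE and 2177, 2990.1 and 2224 TPM in liver VE. It was lower in brain by a small margin (log2 fold change -0.65 ± 0.15 (SE), adjusted p = 0.031), as were C1qb (-0.65) and C1qc (-0.62). The C1qa call was lost without any 1 of the 6 libraries (log2 fold changes of -0.73 to -0.50). Under quantile normalization none of the 3 passed and C1qc reversed to 0.16.

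**Figure D2:**
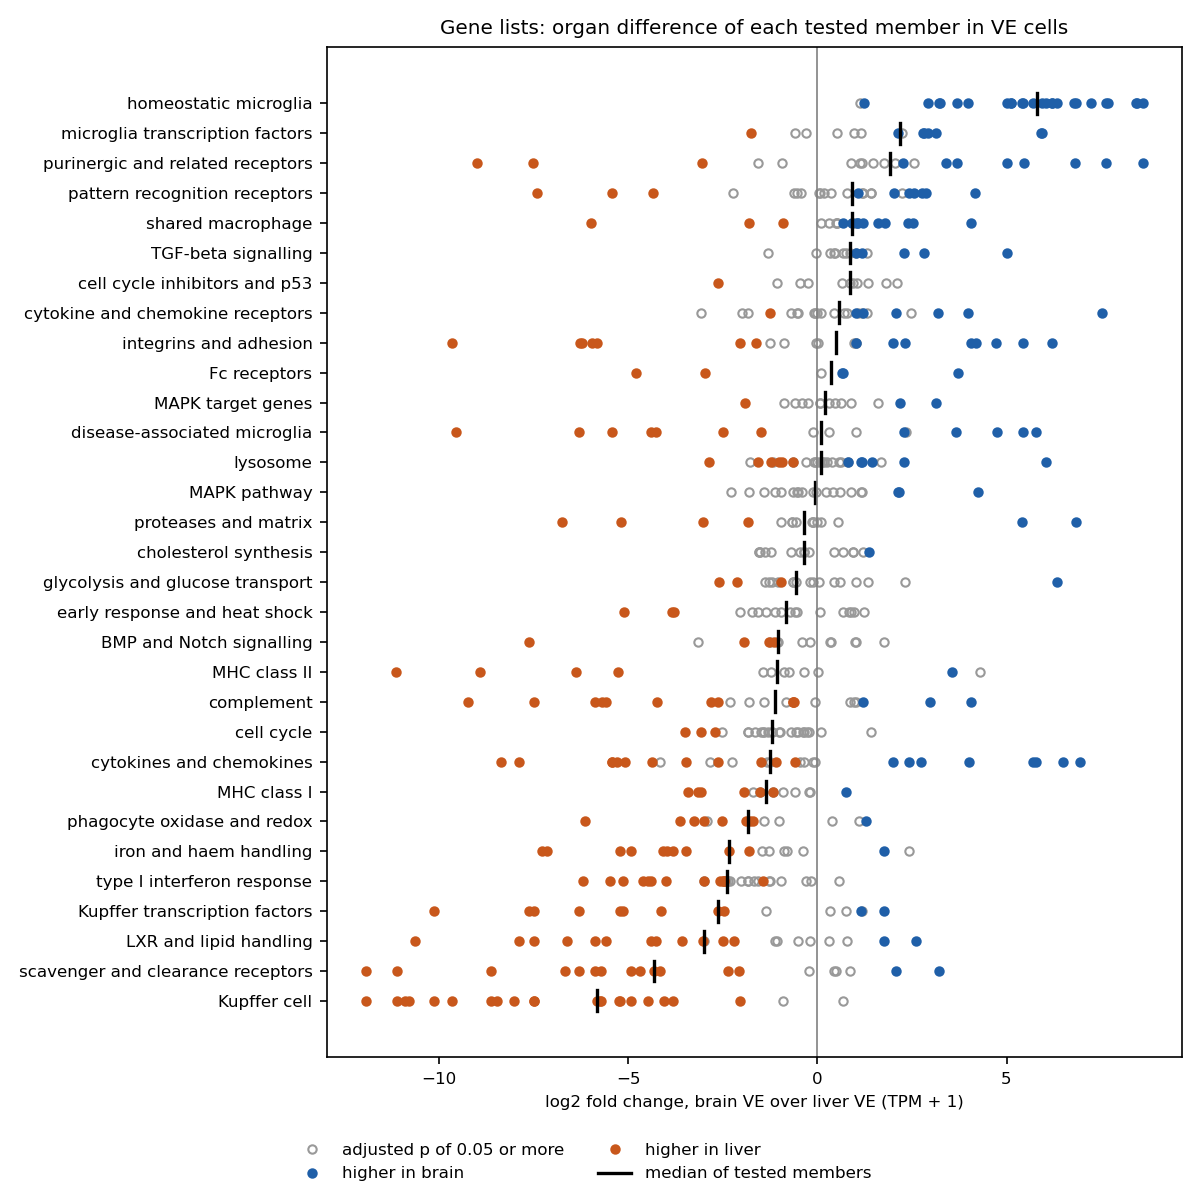
Log2 fold change, brain VE over liver VE, of every tested member of 31 gene lists (rows, ordered by median); filled points passed at an adjusted p under 0.05, open points did not, and the black bar is the list's median. The microglia list sits at a median of 5.82 and the Kupffer list at -5.81, with the other programmes between them and most lists holding calls on both sides.

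Of 28 interferon response genes, 13 were lower in the mutant brain cells, none was higher and 15 did not pass, with a median of -2.38. The count was 8 without any 1 liver VE library and 8 with the last repeat column alone. Ifitm3, a membrane protein that blocks viral entry, stood at 188, 401 and 153 TPM in brain VE and 5802, 5249.6 and 4228 TPM in liver VE (log2 fold change -4.48 ± 0.36 (SE), adjusted p = 0.0008). The nucleic acid sensors Zbp1 and Oas2 differed by -6.21 and -5.48, and the interferon-induced receptor transporter Rtp4 by -2.46. Oas1a, which makes the messenger of the RNase L pathway, stood at 0.373, 3.02 and 11.4 TPM in brain VE and 87.7, 127 and 87.6 TPM in liver VE (log2 fold change -4.61 ± 0.80 (SE), adjusted p = 0.012). Bst2, the tetherin that holds budding virus at the cell surface, stood at 67.1, 13.8 and 31.7 TPM in brain VE and 186, 221 and 163 TPM in liver VE (log2 fold change -2.56 ± 0.55 (SE), adjusted p = 0.024). Its highest brain library lay below the lowest liver library. Irf7, the factor that amplifies interferon, stood at 0.179, 36.9 and 0.495 TPM in brain VE and 132, 187 and 114 TPM in liver VE (-5.13, adjusted p = 0.041), with 1 raised brain library. Its call was kept in 9 of 18 other settings and lost without each library but brain VE 4, at -5.28 to -4.24. Oas1a kept its call in 14 of 18 other settings and Bst2 in 10 of 18. Both lost it without any 1 liver VE library, and Bst2 also without brain VE 5 (log2 fold changes of -2.67 to -2.45).

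The RefSeq promoters of the interferon list were searched, on both strands, for TTTC followed by any 2 bases and a second TTTC, the repeat bound by interferon regulatory and STAT factors. It was present upstream of 8 of 20 list genes with an entry (40%), 3.46% of all 27025 genes, 5.80% of the 948 genes called lower in brain VE and 2.64% of the 948 called higher. None of the 18 microglia or 20 Kupffer list promoters held it. The list was drawn up from known interferon targets, so its share describes the list and was not tested. Oas1a (chr5:120907526-120907775, minus strand) and Bst2 (chr8:71537473-71537722, minus strand) are shown because both carry a pair of overlapping matches and both were called; capitals mark the bases of the matches, read on the opposite strand (GRCm38.p6).
Oas1a: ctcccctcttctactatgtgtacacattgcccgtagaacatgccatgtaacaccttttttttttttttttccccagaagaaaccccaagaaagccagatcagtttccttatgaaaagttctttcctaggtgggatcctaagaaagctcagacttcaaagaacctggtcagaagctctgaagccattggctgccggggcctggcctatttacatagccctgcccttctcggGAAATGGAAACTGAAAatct
Bst2: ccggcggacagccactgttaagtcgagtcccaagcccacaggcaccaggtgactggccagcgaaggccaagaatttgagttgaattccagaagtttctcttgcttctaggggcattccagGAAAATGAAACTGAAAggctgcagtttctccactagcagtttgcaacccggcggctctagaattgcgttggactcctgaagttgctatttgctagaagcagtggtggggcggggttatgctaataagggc
The pair in Oas1a ends 11 and 5 bases before the start, and the pair in Bst2 ends 121 and 115 bases before it. The list member Isg15 also holds a match and had no call (-0.97, adjusted p = 0.24).

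Most of the antigen presentation genes that were called were lower in brain VE. H2-Aa, a chain of MHC class II, differed by -11.15, H2-Ab1 by -8.93 and H2-Eb1 by -6.38. Cd74, the invariant chain that escorts them, stood at 331, 97.0 and 75.6 TPM in brain VE and 5409, 4655 and 5645 TPM in liver VE (log2 fold change -5.27 ± 0.53 (SE), adjusted p = 0.0018), and each brain library was below every liver library. Of the 12 class II genes, 4 were lower, 1 was higher and 7 did not pass. The higher one was H2-Ob, a subunit that restrains peptide loading (3.56), a call lost without brain VE 3, brain VE 4, liver VE 3 or liver VE 4. The costimulatory ligand Cd86 was level (0.02, adjusted p = 0.96). In class I, 6 of 14 genes were lower and 1 was higher, and only 3 were lower without any 1 liver VE library or with no filter. H2-D1 differed by -3.16 and H2-K1 by -1.93, while the light chain B2m was higher in brain (0.74, adjusted p = 0.01), a call that median-ratio scaling ended.

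Cytokines and chemokines went both ways. Of 29 tested genes in a list of 32, 8 were higher and 12 were lower in brain VE, with a median of -1.25. With the first and the last repeat column alone the higher calls were 2 and 5, and the lower calls were 5 with the last column and 6 with no filter. Ccl12, a ligand for the monocyte receptor CCR2, stood at 2078, 12955 and 4840.0 TPM in brain VE and 44.0, 43.6 and 33.5 TPM in liver VE (log2 fold change 6.95 ± 0.62 (SE), adjusted p = 0.0011). Its brain values differed among themselves, with brain VE 4 the highest, and all stayed above the liver values. Ccl3 and Ccl4, the macrophage inflammatory proteins, stood at 1258, 1084 and 524 TPM and 1348, 1102 and 559 TPM in brain VE against 19.9, 8.79 and 23.9 TPM and 3.58, 22.1 and 9.84 TPM in liver VE (5.70 and 6.49). Il6, the acute-phase cytokine, stood at 157, 88.4 and 113 TPM in brain VE and 17.2, 29.5 and 18.2 TPM in liver VE (log2 fold change 2.41 ± 0.36 (SE), adjusted p = 0.0068). Spp1, the matrix cytokine osteopontin, stood at 229, 131 and 44.3 TPM in brain VE and 0.397, 3.36 and 0.347 TPM in liver VE (5.78). Both groups held some Il6, and Spp1 was under 5 TPM in liver. With the first repeat column alone, Ccl3, Ccl4, Il6 and Spp1 lost their calls. Ccl2, the main monocyte attractant, stood at 301, 556 and 97.7 TPM in brain VE and 410.0, 209 and 246 TPM in liver VE with overlapping groups and no call (-0.12, adjusted p = 0.91). On the liver side, Cxcl13, which attracts B cells, stood at 0, 0 and 0.0295 TPM in brain VE and 124, 423 and 255 TPM in liver VE (-7.89). Ccl24, which attracts eosinophils, stood at 7.08, 13.7 and 19.8 TPM in brain VE and 657, 606 and 503 TPM in liver VE (-5.44). Igf1, a growth factor, stood at 0.427, 0.971 and 0.451 TPM in brain VE and 563, 509 and 498 TPM in liver VE (-8.36). In WT cells, where 20.5% of genes were called between the organs, 2 list members were higher in brain (11.6% of genes) and 14 were lower (8.85% of genes). The list's summed level was 7779.5, 18747 and 8108 TPM in brain VE and 3064 and 2174 TPM in brain WT, and 6652, 9153 and 6749 TPM in liver VE and 8031, 7186 and 7342 TPM in liver WT. No list member was called in the test of the difference between VE and WT.

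**Figure D3:**
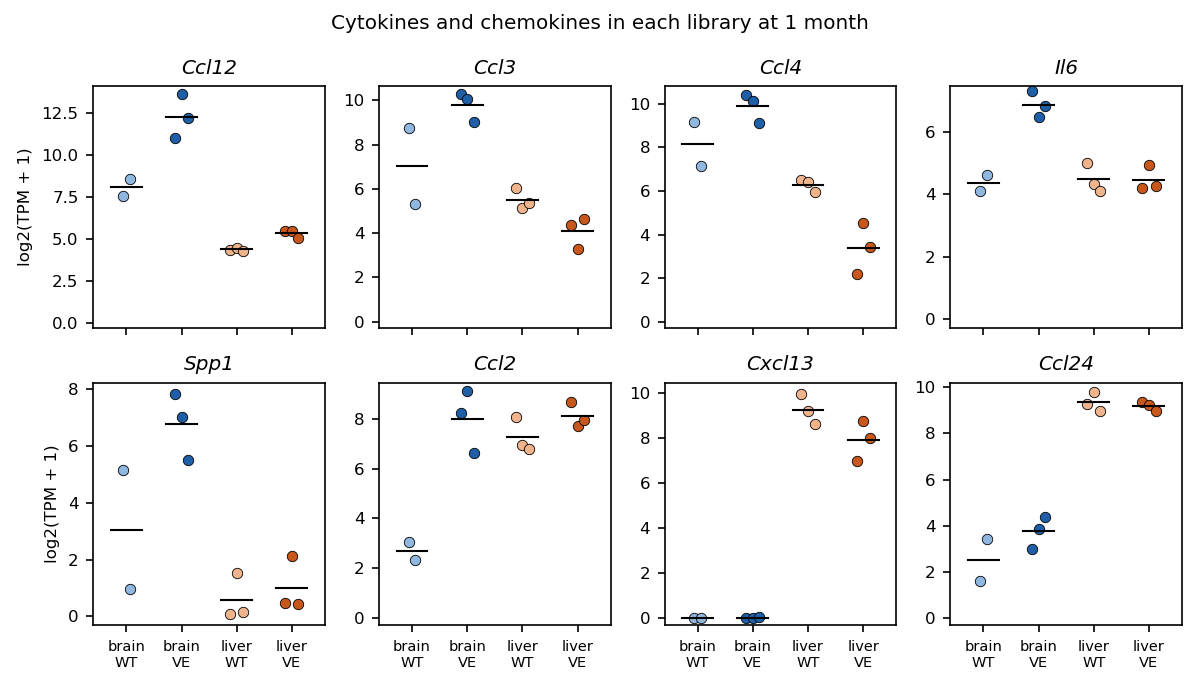
Level of 8 cytokine genes, as log2(TPM + 1) on the vertical axis, in the 2 brain WT, 3 brain VE, 3 liver WT and 3 liver VE libraries (points), with the group mean as a line. Ccl12, Ccl3, Ccl4, Il6 and Spp1 are above all liver VE values in brain VE, Ccl2 overlaps, and Cxcl13 and Ccl24 are above all brain VE values in liver VE.

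In the cytokine and chemokine receptor list, 6 of 24 tested genes of 27 were higher in brain VE and 1 was lower. Ccr1, a receptor for CCL3, stood at 639.6, 533 and 512 TPM in brain VE and 0.136, 12.2 and 0.851 TPM in liver VE (log2 fold change 7.53 ± 0.89 (SE), adjusted p = 0.0033), and Cx3cr1, the receptor for the neuronal ligand fractalkine, at 324, 333 and 313 TPM in brain VE and 24.2, 20.4 and 15.5 TPM in liver VE (3.97). The lower one was the interferon receptor subunit Ifnar2 (-1.26), whereas Ifngr1 was higher (1.01), a call that median-ratio scaling and either repeat column alone ended. Of 24 tested pattern recognition genes of 26, 7 were higher, or 4 without any 1 liver VE library and 2 with the last repeat column alone, and 3 were lower, or 3 to 5 over all settings. Tmem173, the adaptor STING, stood at 516, 498 and 338 TPM in brain VE and 18.5, 27.3 and 25.6 TPM in liver VE (log2 fold change 4.18 ± 0.28 (SE), adjusted p = 0.0004), and Ly86, which pairs with the toll-like receptor relative RP105, differed by 2.43. The lower ones were Tlr8 (-4.33) and the C-type lectins Clec7a (-5.42) and Clec4n (-7.42), which bind fungal sugars. The toll-like receptor adaptor Myd88 had no call (0.36, adjusted p = 0.61). In the purinergic and related receptor list, 8 of 20 tested genes of 22 were higher and 3 were lower. Besides P2ry12 and Gpr34, Lpar6, a lysophosphatidic acid receptor, differed by 5.01 and P2ry13, a second ADP receptor, by 3.69. The formyl peptide receptors Fpr1 and Fpr2, which detect bacterial and mitochondrial peptides, were on the liver side (-9.01 and -7.51). Among 6 tested Fc receptor genes of 8, Fcgr2b, the inhibitory receptor, was higher in brain (3.72) and Fcgr4, an activating one, lower (-4.80), with the latter call kept in 10 of 18 other settings. Fcer1g, the shared signalling chain, was higher by 0.69, or 0.34 without a call under median-ratio scaling.

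The adhesion and effector lists held calls on both sides. Of 22 adhesion genes, 8 were higher and 7 lower in brain VE. Selplg, the selectin ligand, differed by 6.20, the tetraspanin Cd9 by 5.45 and the junction protein F11r by 4.18, while the hyaluronan receptor Cd44 differed by -5.95, Vcam1, the ligand of the VLA4 integrin, by -6.22 and the LFA1 subunit Itgal by -6.27. Of 28 lysosomal genes, 6 were higher and 6 lower, and the higher count was 2 without liver VE 3 or 5, while the lower count was 2, 2 and 3 without liver VE 3, 4 and 5. Under median-ratio scaling 3 were higher, and with the first repeat column alone 2 were lower. Ctsd, an aspartic protease, was higher in brain (2.30), and the cysteine protease Ctsb was lower (-1.57). Of 16 tested protease and matrix genes of 21, 2 were higher, Serpine2, a secreted thrombin inhibitor (6.84), and the matrix glycoprotein Sparc (5.40), and 4 were lower, or 2 without liver VE 3 or 5, with the first repeat column alone or with no filter. Mmp9, a gelatinase, stood at 0.0328, 0.0155 and 0 TPM in brain VE and 105, 126 and 96.6 TPM in liver VE (log2 fold change -6.75 ± 0.40 (SE), adjusted p = 0.00026). Of 14 tested oxidase and redox genes of 16, 8 were lower and 1 was higher; the lower count was 4 without any 1 liver VE library. Gpx1, a glutathione peroxidase, differed by -3.25, and Cyba, a subunit of the phagocyte oxidase, stood at 672, 905 and 561 TPM in brain VE and 2786, 2501 and 2437 TPM in liver VE (-1.88). In the list of disease-associated microglia, 5 of 16 tested genes of 18 were higher in brain VE, among them the lipid receptor Trem2 (4.76) and the tetraspanin Cd63 (3.67), and 7 were lower, among them the lectin Lgals3 (-9.55). Of 19 tested glycolysis and glucose transport genes of 20, 1 was higher, the fructose transporter Slc2a5 (6.34), and 3 were lower, a count of 1 without any 1 liver VE library and 0 with the first repeat column alone.

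In the pathway that carries the mutation, the number of calls was close to the share over all genes (18.1% in either direction). Of 20 MAPK pathway genes, 3 were higher in brain VE (the kinase Map2k1 at 2.16, the Ras inhibitor Rasa1 at 2.14 and the Ras activator Rasgrp3 at 4.24), none was lower and 17 did not pass; with the last repeat column alone 1 was called. In WT cells, in the fit of all 4 groups, 7 were higher (11.6% of genes) and 1 was lower (8.85% of genes). The VE counts come from a fit of the 2 VE groups, so the VE and WT counts rest on unlike tests. No member was called in the test of the difference between VE and WT. The RAF kinase Araf did not pass (0.60, adjusted p = 0.49). Of 14 tested target genes in a list of 20, 2 were higher and 1 was lower. Dusp6, the ERK phosphatase induced by ERK activity, stood at 325, 408 and 193 TPM in brain VE and 66.6, 88.3 and 44.2 TPM in liver VE (log2 fold change 2.19 ± 0.38 (SE), adjusted p = 0.012), and its organ difference in WT cells was 1.98 (adjusted p = 0.016). Etv5, another target, did not pass (0.06, adjusted p = 0.92). Cell cycle genes had 3 of 24 lower in brain VE and none higher: the cyclin Ccnb2 (-3.49), the mitotic gene Birc5 (-3.09) and the replication gene Mcm3 (-2.71). The count was 2 without brain VE 5 or any 1 liver VE library, 5 without brain VE 4 and 6 with all 4 groups fitted together. Pcna, which clamps the replicating polymerase, had no call (-0.37, adjusted p = 0.32). Among 11 tested cell cycle inhibitor genes of 12, the call was Cdkn2b, which encodes the inhibitor p15 and stood at 0.0101, 0 and 0.0348 TPM in brain VE and 2.26, 8.92 and 6.42 TPM in liver VE (log2 fold change -2.61 ± 0.51 (SE), adjusted p = 0.017), and it was lost without liver VE 5 (-2.49). Cdkn1a, which encodes p21, did not pass (2.10, adjusted p = 0.064). Of 18 tested early response genes of 19, 3 were lower in brain VE and none was higher, namely Dusp1 (-5.11), Ier2 (-3.85) and Klf2 (-3.79), transcripts known to rise during cell isolation.

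Markers of other cells moved with the organ as follows, and their part in the results was not tested. Hepatocyte markers were higher in liver VE for 13 of 16 tested genes of 17, with a summed level of 845 to 1555 TPM in liver VE and 12.8 to 50.6 TPM in brain VE. Alb, which encodes albumin, stood at 0.0216, 11.9 and 0.11 TPM in brain VE and 101, 354 and 99.8 TPM in liver VE, and 5 of the 17 genes, among them Ahsg and Hpx, were listed at 0 in all brain VE libraries. Liver endothelial markers were higher in liver VE for 7 of 12 genes, or 4 with the first repeat column alone and up to 10 in other settings (201 to 313 against 3.44 to 31.4 TPM summed). Border-associated macrophage markers, most of which Kupffer cells share, were higher in liver VE for 7 of 10 genes, with sums of 8.13 to 95.2 TPM in brain VE. Monocyte markers summed to 330.2 to 709 TPM in liver VE and 2.6 to 156 TPM in brain VE, mostly from Plac8, with 1 of 8 tested genes of 11 called, on the liver side. Neutrophil markers summed to 2.64 to 8.42 TPM in brain VE and 3.08 to 5.91 TPM in liver VE, with Elane and Ly6g listed at 0 in brain VE. Oligodendrocyte markers summed to 19.4 to 56.8 TPM in brain VE and 15.7 to 17.5 TPM in liver VE, with no call among 5 tested genes of 13. Neuron markers summed to 1.19 to 15.5 TPM in brain VE and 2.57 to 3.97 TPM in liver VE. Astrocyte markers summed to 91.2 to 217 TPM in brain VE, nearly all from the glutamate transporter gene Slc1a3, and 51.2 to 106 TPM in liver VE. Of 8 tested astrocyte genes of 11, 1 was higher in brain VE (Slc1a3, 3.22) and 3 were lower, among them Slc1a2 (-5.08). B cell markers summed to 301 to 551 TPM in brain VE, nearly all from Ighm and Cd79b, with Ms4a1 listed at 0, and 25.8 to 77.9 TPM in liver VE. Of 4 tested B cell genes, 1 was higher and 1 was lower in brain VE. T and NK cell markers summed to 49.7 to 105 TPM in brain VE, mostly from Il7r, with Cd3e, Cd2 and Gzma listed at 0, and 23.5 to 104 TPM in liver VE. Of 8 tested T and NK genes of 12, 1 was higher in brain VE (Il7r, 4.33) and 2 were lower, among them Nkg7 (-4.53). The Il7r call was lost without liver VE 3. Brain endothelial markers summed to at most 12.1 TPM, and fibroblast and stellate markers to 29.7 to 36.0 TPM in liver VE and at most 2.42 TPM in brain VE.

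The organ difference of mutant cells was then set against that of WT cells, with the difference between the 2 organ differences tested as an interaction. In WT cells 3097 genes were called between the organs. Of these, 1711 were called in VE cells in the same direction (909 higher in brain and 802 higher in liver), which is 62.6% of the VE calls and 55.2% of the WT calls. Another 10 were called in opposite directions. With all 4 groups fitted together, as for WT, the VE calls numbered 3232 (1749 higher and 1483 lower in brain). The VE libraries entered the spread of the WT fit, so the 2 sets of calls are not independent. The identity lists kept their counts: 25 of 26 microglia genes and 21 of 23 Kupffer genes were called in WT cells too, with median log2 fold changes of 6.10 and -6.38. Interferon genes had 19 of 28 lower in WT brain with a median of -4.13, and the difference between the VE and WT medians was not tested. The interaction was called for 50 genes (0.331%), of which 11 (0.0727%) were positive and 39 (0.258%) were negative, and 1308 genes had an unadjusted p under 0.05. In all, 13 genes were called both in VE cells and in the interaction. The count of 50 moved with the processing: it was 0 with array weights, where 995 genes had an unadjusted p under 0.05, and ranged from 1 to 248 when 1 library was left out. It was 121, 99 and 126 without brain VE 3, 4 and 5, 199 and 248 without brain WT 4 and 5, 7, 1 and 14 without liver VE 3, 4 and 5, and 7, 1 and 21 without liver WT 3, 4 and 5.

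**Figure D4:**
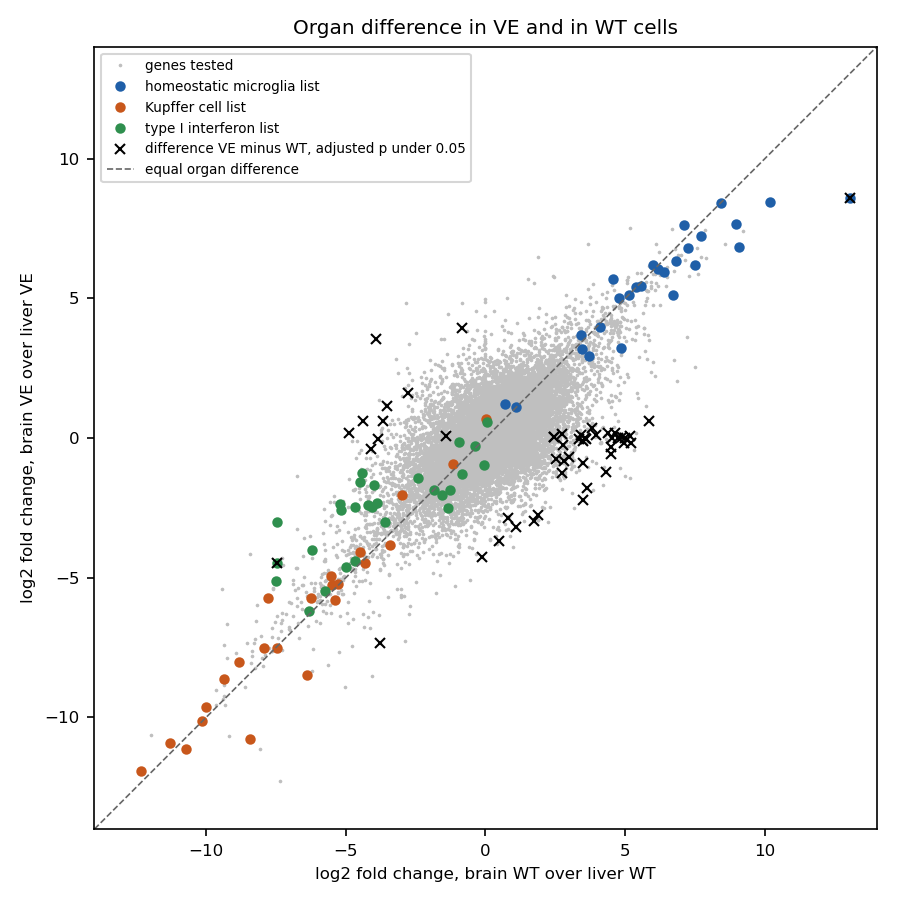
Log2 fold change between brain and liver in WT cells (horizontal axis) and in VE cells (vertical axis) for the 15123 genes tested, with the microglia, Kupffer and interferon lists as coloured points and crosses where the 2 organ differences differed at an adjusted p under 0.05. Points on the dashed line have the same organ difference in both genotypes; the microglia and Kupffer lists fall along it, and interferon genes lie mostly above it.

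Among the members of the lists, Gpr34, Fabp5, Ifitm3, Ier3 and Mobp were called in the interaction. Gpr34 (chrX:13632089-13640858 in GENCODE vM21, GRCm38) stood at 0.0128, 0.321 and 0.0113 TPM in liver WT and 13.8, 28.8 and 19.3 TPM in liver VE, with 9314 and 9413 TPM in brain WT. The interaction was -4.44 ± 0.42 (SE, adjusted p = 0.0063), and the call was kept in 20 of 22 other settings. The 3 liver VE values lay above the 3 liver WT values, and both brain groups were high. As a share of the brain level, the liver level of Gpr34 was 0.253% in VE and 0.00123% in WT, with Siglech at 0.23% and 0.0332%, and Sall1 at 0.337% and 0.0256%. P2ry12 was at 0.533% in VE and 0.725% in WT, and Tmem119 at 0.18% and 0.236%. Over 15 genes with means of at least 100 TPM in brain VE and under 0.1 TPM in liver WT, the median share was 0.422% in VE and 0.0163% in WT. All 15 had a higher mean in liver VE than in liver WT. Their choice by a low liver WT level favours that direction. These shares are a description and were not tested.

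Fabp5, a fatty acid-binding protein, stood at 0.261, 0.0711 and 0.151 TPM in brain VE and 34.5 and 19.6 TPM in brain WT, against 22.1, 32.3 and 13.4 TPM in liver VE and 25.0, 25.2 and 37.6 TPM in liver WT. Brain VE was the one group near 0. The interaction was -4.13 ± 0.69 (SE, adjusted p = 0.038), kept in 6 of 22 other settings. Ifitm3 stood at 188, 401 and 153 TPM in brain VE and 22.8 and 37.1 TPM in brain WT, against 5802, 5249.6 and 4228 TPM in liver VE and 5639, 6115 and 4445 TPM in liver WT. Its organ difference was -4.48 in VE and -7.47 in WT, so the gap between organs was smaller in mutant cells (interaction 2.996 ± 0.49, SE, adjusted p = 0.038, kept in 8 of 22 other settings). Both lost the call when any 1 of the liver libraries or brain WT 4 was left out, over a range of -6.27 to -1.90 for Fabp5 and 2.58 to 5.16 for Ifitm3 across all settings. Ier3, an early response gene induced by ERK, stood at 35.3, 13.2 and 18.9 TPM in brain VE and 0.064 and 0.104 TPM in brain WT, and it was level between organs in VE (0.62) but not in WT (-4.39). Mobp, a myelin protein gene, stood at 3.2, 0.195 and 0.438 TPM in brain VE and 100.1 and 48.1 TPM in brain WT. The whole oligodendrocyte list summed to 479 and 264 TPM in brain WT and 19.4, 56.8 and 50.6 TPM in brain VE, and its part in the interactions was not tested.

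For 5 further genes the organ differences of VE and WT cells were unlike in size, but the interaction did not pass. Ccl2 was level between organs in VE and differed by -4.60 in WT (interaction 4.48, adjusted p = 0.079). Hmox1 stood at 42.1 and 46.8 TPM in brain WT, and its organ difference was -7.28 in VE and -2.86 in WT (interaction -4.41, adjusted p = 0.075). Fam84a stood at 0.00342, 0.00387 and 0.0173 TPM in brain VE, 17.7, 9.58 and 8.24 TPM in liver VE, 0.0173 and 0.00438 TPM in brain WT and 0.0768, 0.576 and 0.403 TPM in liver WT, so liver VE was the one group above 1 TPM (interaction -3.20, adjusted p = 0.054). Cdkn2b was also above 1 TPM in liver VE alone, with 0.00888, 0.0151 and 0 TPM in liver WT (interaction -2.65, adjusted p = 0.15). Etv1 differed by 3.14 in VE and -0.14 in WT (interaction 3.28, adjusted p = 0.24). For these 5 genes a different organ gap in mutant and WT cells was not shown.

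**Figure D5:**
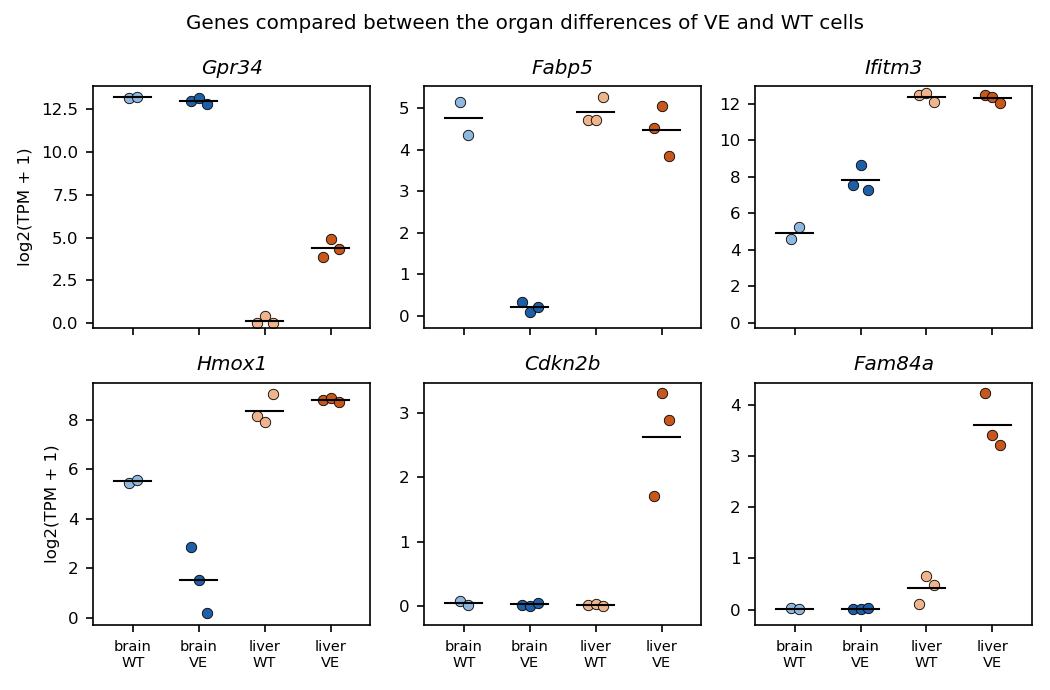
Level of 6 genes, as log2(TPM + 1) on the vertical axis, in the 2 brain WT, 3 brain VE, 3 liver WT and 3 liver VE libraries (points), with the group mean as a line. Liver WT and liver VE do not overlap for Gpr34, brain WT and brain VE do not overlap for Fabp5, Ifitm3 and Hmox1, and Cdkn2b and Fam84a are above 1 TPM in liver VE only.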

How the data were processed

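RNA from sorted cells was amplified by 14 cycles with the SMART-seq V4 kit, built into libraries with 8 further cycles from 10 ng of product and sequenced as 50 bp paired ends, per the labels' protocols. STAR, mm10 and GRCh38 are named without version or role, per the submitters' processing notes; for the quantifier and the annotation, nothing is given in the sources used here. The authors deposited TPM per Ensembl gene for 39017 genes (96.4% matched to a symbol in GENCODE vM21). Each column sums to 1000000, so depth is unknown and no counting interval was computed. Strand is not recorded by this kit, and reads of overlapping or antisense genes are therefore mixed.

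The 1-month table holds 21 columns for 11 libraries. Repeat columns were averaged per sample, on the TPM scale, to give 1 replicate; liver WT 5 has 1 column. Values were log2(TPM + 1), a pseudocount of 1, and the 15123 genes that reached 1 TPM in 2 or more of the 11 libraries were kept. Brain VE was compared with liver VE in a fit of these 2 groups alone. Brain WT was compared with liver WT, and the interaction tested, in a fit of all 4 groups with 1 shared spread. Both fits used limma 3.58.1 in R 4.3.3 (moderated test, Benjamini-Hochberg adjustment, 2-sided). The script was tested on simulated data. Alternatives were 18 for the VE comparison and 22 for the interaction. Of 699 genes in 44 lists, 697 were in the table and 600 were tested.

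The comparison, the lists and the naming rule were chosen with earlier results of these data known. Named by rule were 34 chosen genes, the 10 largest changes per direction with non-overlapping libraries and at least 10 TPM in each library of the higher group, per list up to 4 called and 2 uncalled members by mean TPM, up to 5 interaction genes per direction, and list members with an interaction. Some genes this rule names are not reported here. Named outside this rule, after their values were seen, were Cx3cr1, Cxcl13, Igf1, Isg15, Oas1a, Oas2, Spp1, Zbp1, Rnf185 and 8030453O22Rik. Promoters are RefSeq entries of GRCm38.p6, 250 bases upstream of the start, for 27025 genes, of which 9994 tested genes matched by symbol.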

Additional observations from a re-analysis of the deposited data

Results flagged for a closer look

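The organ difference in VE cells and that in WT cells differed for 50 of 15123 genes by a test of the difference itself (limma interaction; values are the VE organ difference minus the WT one, log2). Given here are 13 of them: the 5 largest per direction among genes with a standard symbol and at least 10 TPM in every library of the highest group, the list members, and Rnf185, which is outside the naming rule and is given because it was called in opposite directions in VE and WT cells. Not all of the 13 were called between organs in VE cells. Of the genes in the report, Gpr34 had -4.44 (adjusted p = 0.0063), Fabp5 -4.13 (0.038), Ifitm3 2.996 (0.038), Ier3 5.01 (0.028) and Mobp -5.24 (0.029).

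The other 8 genes turned mainly on the brain libraries. Pmm2, a mannose metabolism enzyme gene, stood at 32.5, 39.8 and 36.3 TPM in brain VE and 0.419 and 0.548 TPM in brain WT (5.08, adjusted p = 0.0097). Zfand4 stood at 17.1, 18.6 and 19.8 TPM and 0.15 and 0.0868 TPM (4.76, adjusted p = 0.029), and Etfrf1 at 33.2, 29.5 and 43.5 TPM and 2.08 and 0.346 TPM (4.69, adjusted p = 0.021). In these 3 genes brain VE was the higher brain group. Zfp78, a zinc finger gene, stood at 0.193, 0.0109 and 0.077 TPM in brain VE and 46.5 and 26.8 TPM in brain WT (-5.11, adjusted p = 0.01). Cdc45, a replication gene, stood at 0.079, 0 and 0 TPM and 26.8 and 16.3 TPM (-5.53, adjusted p = 0.019), and Haus4, a spindle gene, at 0.173, 0 and 0 TPM and 19.9 and 54.4 TPM (-5.73, adjusted p = 0.019). Ogfod2 stood at 0.116, 0.0602 and 1.49 TPM and 42.3 and 30.1 TPM (-5.42, adjusted p = 0.04), and the ubiquitin ligase gene Rnf185 at 0.281, 0.136 and 0.441 TPM and 30.8 and 16.8 TPM (-4.63, adjusted p = 0.034). In these 5 genes brain WT was the higher brain group. With 2 brain WT libraries, each value rests on few points.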

How the results depend on the processing

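The number of genes called between brain VE and liver VE was 2734. It was 1732 with the first repeat column alone, 1520 with the last, and 1690 to 2969 with 1 library left out. Apart from the replicate block given below, it stayed within 1.5 times under the other settings, from 2002 with no filter to 3232 with all 4 groups fitted together. In WT cells the count was 3097, or 2012 with array weights and 1962 and 1880 with the first and last repeat column. With 1 library of the 4 groups left out it ranged from 2224 without liver WT 4 to 3598 without brain VE 5. The interaction count of 50 was 0 with array weights, 2 with a filter of 5 TPM in 3 libraries, 4 with no filter, 29 with quantile normalization and 1 to 248 with 1 library left out. With a replicate block the counts were 1354 for VE (683 higher and 671 lower in brain), 2574 for WT and 1 for the interaction, and the cell cycle list had 1 call in VE in place of 3. The labels give no source shared by equal numbers, and deviations from the group means of equally numbered brain VE and liver VE libraries had correlations of -0.0019, 0.029 and 0.0086, so the numbers were not taken as pairs. Of the named organ differences over all settings, 4000 values kept their direction and side of the threshold, 559 lost the threshold, 79 gained it and 2 reversed: C1qc to 0.16 with quantile normalization and 8030453O22Rik to -0.96 with the first repeat column. The causes were not tested. TPM keep no depth, so what sequencing depth limits cannot be given, and many values near 0 rest on 1 of 2 repeat columns.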
